A study of Drosophila melanogaster with 2 samples.

Results

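The vacuolar ATPase genes of Drosophila melanogaster were taken as the 33 protein-coding genes whose symbol starts with Vha, out of 13968 protein-coding genes on the nuclear chromosomes. Peaks of the transcription factor Crc were scored at each of them. Crc, the product of cryptocephal (crc), is the fly ATF4, a bZIP factor that acts when amino acids run short or the endoplasmic reticulum is under stress. The animals were whole embryos of both sexes, aged 0 to 24 h, of the strain crc-MiMIC-GFP, in which an eGFP exon inserted in a crc intron makes the endogenous gene encode a Crc-eGFP fusion. Sonicated chromatin of 200 to 800 bp was pulled down through the GFP tag in 2 biological replicates of 1 group. All animals carried the tag, no untagged library was analysed here, and every tissue of the embryo was mixed, so that a strong peak in few cells and a weak one in many cannot be told apart.

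The vacuolar ATPase (V-ATPase) is a rotary proton pump that acidifies lysosomes, endosomes and secretory vesicles and, in the plasma membrane of fly epithelia such as the Malpighian tubule, energises transport. Its V1 sector hydrolyses ATP in the cytosol. That turns a central shaft and the ring of the V0 sector in the membrane, which carries the protons across. In flies many subunits are encoded by several genes, commonly a broadly expressed one and others used in the testis, the gut or a few other tissues, and the pump on lysosomes is also part of the machinery through which amino acids activate the kinase TOR.

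The authors' lists on the dm6 build held 2420 optimal peaks, which passed their reproducibility filter, 24369 candidate regions from both replicates pooled, and 30000 candidates for each replicate. Each region has a summit and a signal, the peak caller's own score, which ran from 63.98 to 1274 in the optimal list and reached down to 18.8 in the pooled one. The optimal peaks were the strongest pooled candidates, so a rank of 2420 or better marks them. A gene is called bound when 1 of its annotated transcript starts had an optimal summit no more than 500 bp away, and a candidate gene when it had a pooled candidate summit there. Signals were compared within a list, and replicates by rank. The reads behind each peak were not analysed here, so its depth is unknown.

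Crc-eGFP peaks lay at the starts of 6 Vha genes: Vha100-2, Vha36-1, Vha55, Vha68-1, Vha16-1 and Vha68-2. They encode the membrane subunit a, the shaft subunit D, the nucleotide-binding subunits B and A, the ring subunit c and, in a second gene, subunit A. The other 27 genes were not bound, and 16 of those had no pooled candidate either. As background, 11.5% of all protein-coding genes were bound, against 18.2% of the Vha genes. A pooled candidate was present at 17 Vha genes or 51.5%, close to the 45.5% over all genes. In replicate 1, 20 Vha genes or 60.6% had a candidate against 44.5% of all genes, while in replicate 2 it was 15 or 45.5% against 51.5%, so the Vha share was above the background in one library and below it in the other. Among the 2420 strongest candidates of each replicate, the count was 6 Vha genes (18.2%, against 11.8% of all genes) in replicate 1 and 5 (15.2%, against 11.5%) in replicate 2. These shares are descriptions, since 1 group of 2 replicates allows no test between conditions.

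The bound summits of Vha68-1, Vha68-2, Vha55 and Vha16-1 lay between genes. The DNA under the first 3 of these is shown, and it can be read without entering a transcript. It was taken from the RefSeq copy of Release 6, the dm6 sequence, 5′ to 3′ on the strand of the gene and ending before its first base. Each window starts 125 bases before the summit, which is base 126. Capitals mark the motifs searched: Motif 1, GGTCACACT, a core promoter element of broadly expressed fly genes; DRE, TATCGATA, the element of the promoter factor DREF; and GAGAG, the element of GAGA factor, each on either strand. Vha68-1 comes from chr2L:13004108-13004319 on the minus strand, Vha68-2 from chr2L:12974050-12974300 on the plus strand and Vha55 from chr3R:12627830-12628028 on the minus strand.
Vha68-1 summit: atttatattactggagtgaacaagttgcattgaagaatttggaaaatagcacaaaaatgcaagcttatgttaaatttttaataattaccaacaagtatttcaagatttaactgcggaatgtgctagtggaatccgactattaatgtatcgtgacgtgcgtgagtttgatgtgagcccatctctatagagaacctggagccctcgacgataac
Vha68-2 summit: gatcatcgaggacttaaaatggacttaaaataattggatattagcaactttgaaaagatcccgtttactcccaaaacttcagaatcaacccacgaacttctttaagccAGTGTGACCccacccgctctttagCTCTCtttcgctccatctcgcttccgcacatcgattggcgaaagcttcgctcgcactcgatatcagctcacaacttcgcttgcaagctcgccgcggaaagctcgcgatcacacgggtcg
Vha55 summit: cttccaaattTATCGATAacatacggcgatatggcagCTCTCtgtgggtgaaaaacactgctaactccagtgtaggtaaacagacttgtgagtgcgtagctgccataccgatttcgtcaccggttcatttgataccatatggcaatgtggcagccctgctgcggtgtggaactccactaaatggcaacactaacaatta

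For contrast, the DNA before the starts of Vha68-3 and Vha100-4, each the downstream neighbour of a bound paralogue, is given from the same source and in the same orientation. Neither held a pooled candidate. The Vha68-3 stretch, chr2L:12978608-12978785 on the plus strand, is the whole gap of 178 bp between Vha68-2 and Vha68-3. The Vha100-4 stretch, chr3R:18389806-18390055 on the minus strand, holds in capitals the CARE (TGATGNAAT or TGATGNAAC, on either strand), the element through which mammalian ATF4 acts as a dimer with C/EBP proteins.
Vha68-3 promoter: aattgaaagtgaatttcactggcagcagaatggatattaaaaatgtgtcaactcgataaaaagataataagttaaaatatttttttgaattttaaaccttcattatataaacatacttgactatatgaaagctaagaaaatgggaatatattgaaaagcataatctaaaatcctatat
Vha100-4 promoter: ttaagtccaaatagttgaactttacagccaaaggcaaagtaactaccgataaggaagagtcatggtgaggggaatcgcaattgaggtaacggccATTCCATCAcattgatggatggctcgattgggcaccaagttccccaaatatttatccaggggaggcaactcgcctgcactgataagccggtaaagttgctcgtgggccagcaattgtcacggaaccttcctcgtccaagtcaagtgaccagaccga

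**Figure D1:**
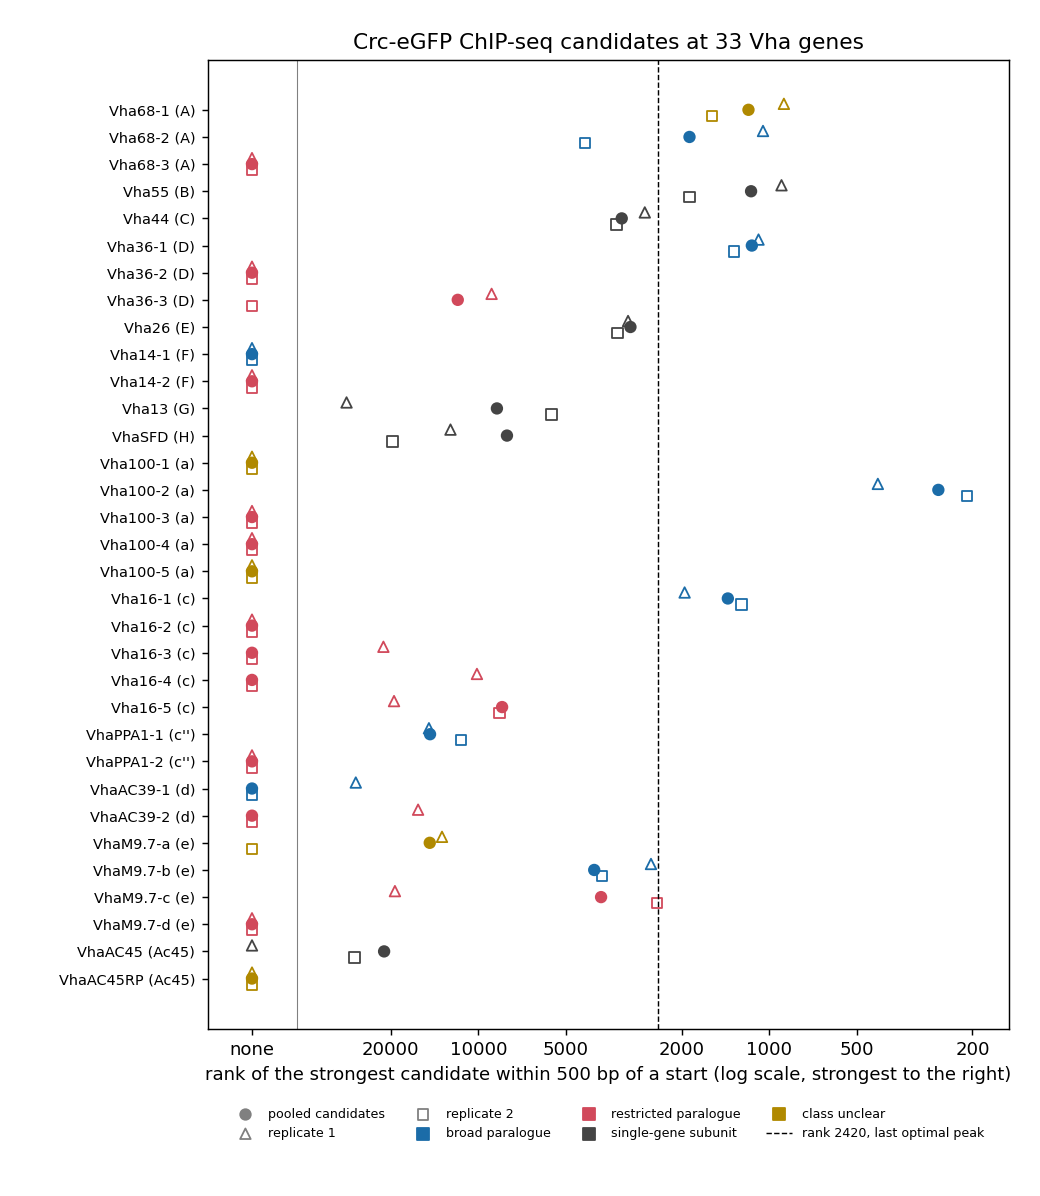
Rank of the strongest candidate within 500 bp of a start for each of the 33 Vha genes, with the subunit in brackets, on a log scale with the strongest to the right; filled circles are pooled candidates, triangles replicate 1, squares replicate 2, and the column at the left edge holds genes with no candidate in that list. The 6 bound genes have their circles right of the dashed line at rank 2420, and no circle of a restricted paralogue lies there.

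In the plot of ranks by gene, the V1 sector held 4 bound genes of 13 (30.8%, against 11.5% of all genes) and 9 with a pooled candidate (69.2%, against 45.5%). Subunits A and B form the ring that binds and splits ATP. Vha68-1, one of the genes for subunit A (FBgn0265262), had a signal of 98.5 and pooled rank 1178, with 47.5 at rank 890 in replicate 1 and 50.2 at rank 1574 in replicate 2. The peak was called at 2L:13003994-13004393, and its summit lay 87 bp upstream of the Vha68-1 start and 286 bp from the divergent start of mTor, the kinase TOR itself. Both replicates placed it among their 2420 strongest candidates. Vha68-2 (FBgn0263598), the broadly used gene for subunit A, had the weakest of the bound peaks, 74.3 at rank 1879, called at 2L:12973975-12974374 and 147 bp upstream. Its signal was 43.3 at rank 1050 in replicate 1 and 27.8 at rank 4292 in replicate 2, so replicate 2 alone would not have placed it in the top 2420. Vha55 (FBgn0005671), the single gene for subunit B, had 99.5 at rank 1154, called at 3R:12627703-12628102, 74 bp upstream and 128 bp from the start of Snx3, a sorting nexin gene. The replicates gave it 46.9 at rank 907 in replicate 1 and 44.9 at rank 1878 in replicate 2.

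Subunits D and F make the central shaft. Vha36-1 (FBgn0022097), the broad gene for subunit D, had a signal of 99.8 at rank 1147, with 42.5 at rank 1088 in replicate 1 and 55.2 at rank 1319 in replicate 2. The peak was called at 2R:15541163-15541562. Its summit lay 72 bp upstream of Vha36-1 and exactly on the start of CG8187, which runs the other way, in the 5′ UTR of that gene. Vha14-1, the broad gene for subunit F, had no candidate within 500 bp in the pooled list or in either replicate. A strong optimal peak, 256.2 at pooled rank 166, lay 844 bp downstream of its start, past its 3′ end and 284 bp from the start of Gmppa, a gene for a GDP-mannose synthesis protein. That peak ranked 129 in replicate 1 and 206 in replicate 2, ahead of any peak assigned to a Vha gene in either library, and is assigned to Vha14-1 only when the limit is widened to 1000 bp.

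Each of the remaining V1 subunits is encoded by 1 gene, and each of these genes had a candidate that fell short of the optimal list. Vha26, for the stalk subunit E, had 56.2 at rank 2999, the strongest candidate of any unbound Vha gene, 271 bp upstream of Vha26 but 33 bp from the start of the splicing factor gene noi. Replicate 2 had it at 32.4 and rank 3323, while replicate 1 had no summit within 100 bp of it and its own strongest candidate, 24.9 at rank 3056, lay 79 bp upstream of Vha26. With a limit of 200 bp the pooled signal of Vha26 was 33.9. Vha44, for subunit C, which holds V1 and V0 together, had 53.8 at rank 3213, 107 bp upstream and 16 bp from the start of Hmgs, the HMG-CoA synthase gene; the replicates ranked it 2677 in replicate 1 and 3353 in replicate 2. VhaSFD, for the regulatory subunit H, had 32.0 at rank 7971, 410 bp upstream, the farthest of the candidates scored, with ranks of 12466 in replicate 1 and 20041 in replicate 2. Vha13, for the stalk subunit G, had 30.9 at rank 8631, 113 bp upstream, with ranks of 28383 in replicate 1 and 9483 in replicate 2. In replicate 2 a stronger candidate for Vha13, 23.7 at rank 5593, lay 89 bp downstream of its start. An optimal peak of 92.8 at rank 1311 lay 2593 bp downstream of its start, beyond the gene. Between the weakest bound Vha gene, Vha68-2 with 74.3, and the strongest unbound one, Vha26 with 56.2, lies the lowest optimal signal of 63.98.

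The V0 sector held 2 bound genes of 18 (11.1%, against 11.5% of all genes) and 7 with a pooled candidate (38.9%, against 45.5%), so its share of bound genes was at the background. Subunit a forms the proton channels and sets where in the cell the pump goes. Vha100-2 (FBgn0028670) had the strongest peak of the set, 210.7 at pooled rank 262, with 69.6 at rank 423 in replicate 1 and 140.2 at rank 209 in replicate 2. It exceeded the lowest optimal signal by a factor of 3.29, and 96.7% of the 6352 genes with a candidate had a signal at or below it. The peak was called at 3R:18397057-18397456 and did not lie at the outer Vha100-2 promoter. Its summit was 1912 bp inside the gene, in an intron and 329 bp upstream of an internal start, and at the same time in the 5′ UTR of Vti1b, a SNARE gene of the endosomal route, 262 bp from a Vti1b start. At the outer promoter the strongest candidate had 54.6 at rank 3130, 70 bp upstream, short of the optimal list. That candidate had no matching summit in replicate 1 and 38.5 at rank 2431 in replicate 2. The call for Vha100-2 thus rests on an internal start and on a peak shared with Vti1b.

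Of the other genes for subunit a, Vha100-1, known for its part in synaptic vesicles of fly neurons, and Vha100-3, Vha100-4 and Vha100-5 had no candidate in any of the 3 candidate lists. The nearest pooled candidates were 919 bp from Vha100-1 (19.1), 1140 bp from Vha100-4 (19.5), 2827 bp from Vha100-5 (26.1) and 4454 bp from Vha100-3 (21.1). The pooled list had a median signal of 26.1 and a lowest of 18.8, so the candidate near Vha100-5 was at its middle and the others lay below it. The c ring, which turns and carries the protons, gave the second bound V0 gene. Vha16-1 (FBgn0262736) had 89.6 at rank 1387, called at 2R:6633036-6633435, with the summit 146 bp upstream of its start in DNA between genes and with no other start within 500 bp. Replicate 1 had it at 31.3 and rank 1953, and replicate 2 at 57.0 and rank 1246. A second optimal peak of 78.7 at rank 1703 lay inside Vha16-1, 2302 bp from its outer start; it had 54.3 at rank 1351 in replicate 2 and no matching summit in replicate 1.

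Vha16-5, another gene for subunit c, had a candidate of 31.5 at rank 8284, 284 bp upstream and 18 bp from the start of CG12299. It had a match at rank 8472 in replicate 2 and none within 100 bp in replicate 1, whose own candidate, 12.4 at rank 19490, lay 161 bp upstream. Vha16-2, Vha16-3 and Vha16-4 had none in the pooled list, although replicate 1 listed 12.0 at rank 21200 for Vha16-3 and 15.8 at rank 10110 for Vha16-4. VhaPPA1-1, the broad gene for the related ring subunit c″, had 23.9 at rank 14655, 274 bp upstream, with ranks of 14784 in replicate 1 and 16152 in replicate 2, and VhaPPA1-2 had none. Subunit d couples the shaft to the ring. Neither VhaAC39-1 nor VhaAC39-2 had a pooled or replicate 2 candidate, and replicate 1 held weak ones of 10.9 at rank 26383 for VhaAC39-1 and 13.4 at rank 16110 for VhaAC39-2. Of the 16 genes without a pooled candidate in range, VhaAC39-2 had the nearest one, with 30.4 at 736 bp.

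Subunit e is a small membrane protein with 4 genes, of which 3 had a candidate. VhaM9.7-b had 47.5 at rank 3995, 328 bp upstream and 87 bp from the start of the cytochrome oxidase gene COX8, with 27.1 at rank 2549 in replicate 1 and 30.1 at rank 3751 in replicate 2. With a limit of 200 bp its pooled signal was 26.3. VhaM9.7-c had 48.9 at rank 3784, 11 bp downstream of its start, with 12.5 at rank 19353 in replicate 1 and 38.5 at rank 2429 in replicate 2. The 2 replicates thus ordered these genes differently. VhaM9.7-a had 23.9 at rank 14689, with a match in replicate 1 and none in replicate 2, and VhaM9.7-d had none. Of the accessory proteins, VhaAC45, which helps to assemble and direct the pump, had the weakest candidate of the set at 20.2 and rank 21082, found in replicate 2 at 9.94 and rank 26661 and not in replicate 1. Its relative VhaAC45RP had none.

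**Figure D2:**
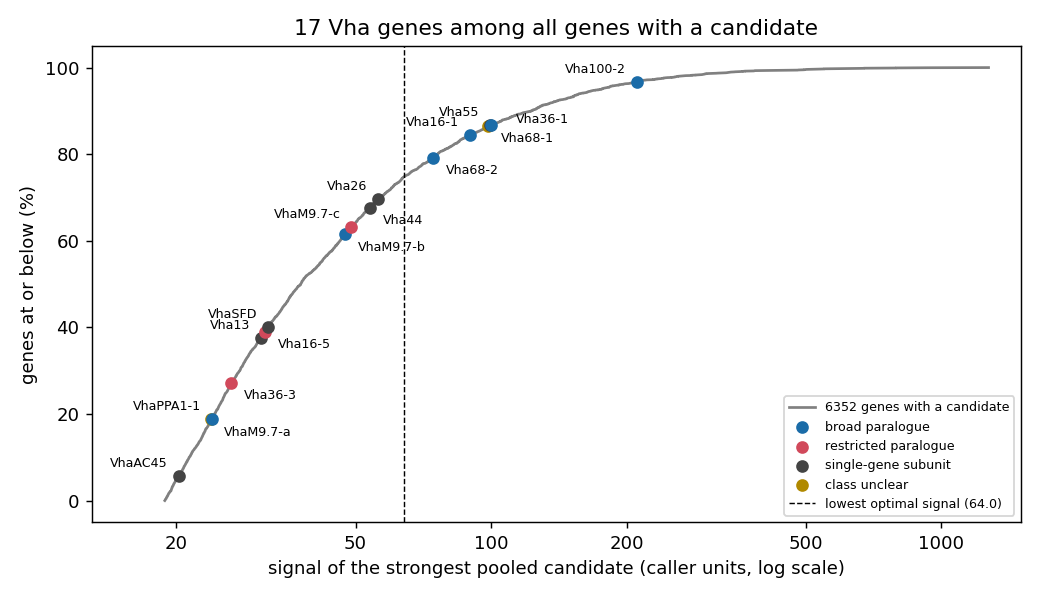
Cumulative share of the 6352 genes with a pooled candidate, in percent, against the signal of their strongest candidate on a log scale, with the 17 Vha genes as points coloured by class and the lowest optimal signal of 64.0 dashed. The Vha points run along the whole curve, from VhaAC45 at 20.2 to Vha100-2 at 210.7, and 5 of the 6 bound ones lie between 74.3 and 99.8.

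The Vha signals were set beside those of all genes that had a candidate, which describes only members that had one. The 17 Vha genes had a median of 48.9, against 37.8 over the 6352 genes. Among bound genes the order was the other way, with a median of 99.0 for the 6 Vha genes and 103.9 for the 1605 bound genes. As the cumulative plot of signals shows, Vha100-2 stood well above its fellows and the next 3, Vha36-1, Vha55 and Vha68-1, lay close together, at 99.8, 99.5 and 98.5. Of the 17 summits, 15 lay upstream of the start used, while 70.6% of the genes with a candidate had theirs upstream; all 6 bound ones did, as did 86.2% of the bound genes. The distance to the start was 11 to 410 bp with a median of 147 bp, against a median of 153 bp over the 6352 genes.

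Of the 17 summits, 12 had a candidate summit within 100 bp in both replicates, including all 6 of the bound genes. Of these 12, 8 ranked better in replicate 1 and 4 in replicate 2. Vha100-2 and Vha16-1, the bound V0 genes, ranked better in replicate 2. All 4 bound V1 genes ranked better in replicate 1. The gap was widest for Vha68-2 among the bound genes, at rank 1050 in replicate 1 and 4292 in replicate 2.

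**Figure D3:**
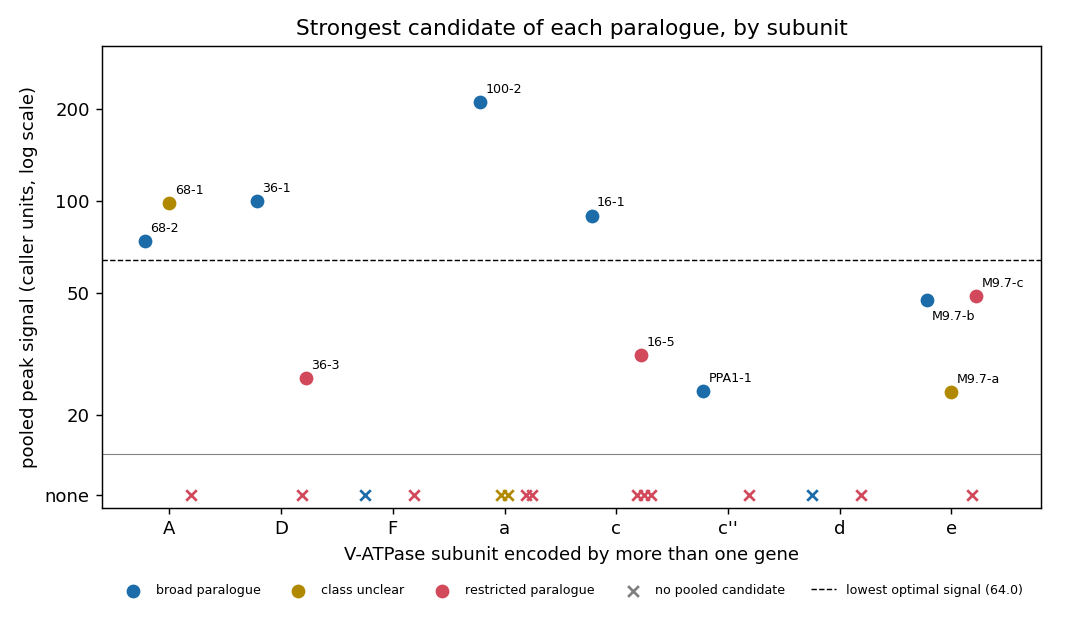
Signal of the strongest pooled candidate of each gene, on a log scale, for the 8 subunits with paralogues of both classes; crosses are genes with no pooled candidate and the dashed line is the lowest optimal signal of 64.0. The broad gene stands above its restricted paralogues for subunits A, D, a, c and c″, the order is the other way for e, and neither class has a point for F and d.

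Broadly expressed and tissue-restricted paralogues of the same subunit were then set against each other. No expression was measured in the files, so the classes rest on general knowledge of adult expression. They were chosen with earlier results of these data known, so the contrast is a description and not independent of the peaks. The 5 genes whose class was unclear were left out of both, and 1 of these, Vha68-1, was bound. Of the 8 broad paralogues, 4 were bound (Vha100-2, Vha36-1, Vha16-1 and Vha68-2) and 6 had a pooled candidate. Of the 14 restricted paralogues, 0 were bound and 3 had a pooled candidate, VhaM9.7-c with 48.9, Vha16-5 with 31.5 and Vha36-3 with 26.5. Over all genes the shares were 11.5% bound and 45.5% with a candidate, so the broad class stood above the background on both counts and the restricted class below it. In replicate 1 candidates lay at 7 of 8 broad genes (87.5%) and 6 of 14 restricted genes (42.9%), against 44.5% of all genes, so the restricted class was near the background there. In replicate 2 they lay at 6 of 8 broad genes (75%) and 2 of 14 restricted genes (14.3%), against 51.5% of all genes. Of the 6 genes taken as the single gene of their subunit, all 6 had a pooled candidate and 1, Vha55, was bound. VhaAC45 was counted among them, although its relative VhaAC45RP, put in the unclear class, had no candidate.

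Both classes had a pooled candidate only for subunits D, c and e, and the gap was wide for D and c but not for e. For subunit D, Vha36-1 had 99.8, against 26.5 for Vha36-3, whose candidate had a match in replicate 1 alone (16.5 at rank 9002), and none for Vha36-2. An optimal peak of 120.3 at rank 829 lay 1723 bp upstream of Vha36-3, beside the divergent gene AANATL7 and outside the limit. For subunit c, Vha16-1 had 89.6, against 31.5 for Vha16-5, the strongest of its 4 restricted paralogues. For subunit a, Vha100-2 had 210.7 at an internal start, with 54.6 at its outer promoter, and neither Vha100-3 nor Vha100-4 had a candidate. The summits of Vha36-1 and Vha100-2 were nearer to the starts of CG8187 and Vti1b. Counted over the 8 subunits, and with the genes of unclear class left out, the broad gene had a stronger candidate than its restricted paralogues in 5, a restricted gene did in 1 and neither class had one in 2. For subunit A the unclear Vha68-1, with 98.5, exceeded the broad Vha68-2, with 74.3, and it had the better rank in each replicate. In replicate 1 the counts were 6, 1 and 1, and in replicate 2 they were 5, 1 and 2. The exception was not the same subunit in each library. It was subunit e in replicate 2, where VhaM9.7-b had 30.1 and VhaM9.7-c 38.5, and subunit d in replicate 1, where VhaAC39-1 had 10.9 and VhaAC39-2 had 13.4, both weak. The case of c″, counted for the broad gene, was weak too. VhaPPA1-1 had at most 23.9 in the pooled list, below its median of 26.1, 13.8 in replicate 1 and 15.9 in replicate 2. The replicate 2 value came from another candidate, 451 bp downstream of the start, and the match to the pooled summit had 13.3 there. For subunits A, a and c″ no restricted gene had a pooled candidate, which counted as lower. The broad class also differed from the restricted class in its surroundings. A divergent gene started within 1 kb of 4 of the 8 broad genes (50%) and of 2 of the 14 restricted ones (14.3%), against 36.2% of all genes. The same held for 5 of the 6 single genes and 3 of the 5 unclear ones. Whether a divergent neighbour has a part in the difference between the classes was not tested.

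**Figure D4:**
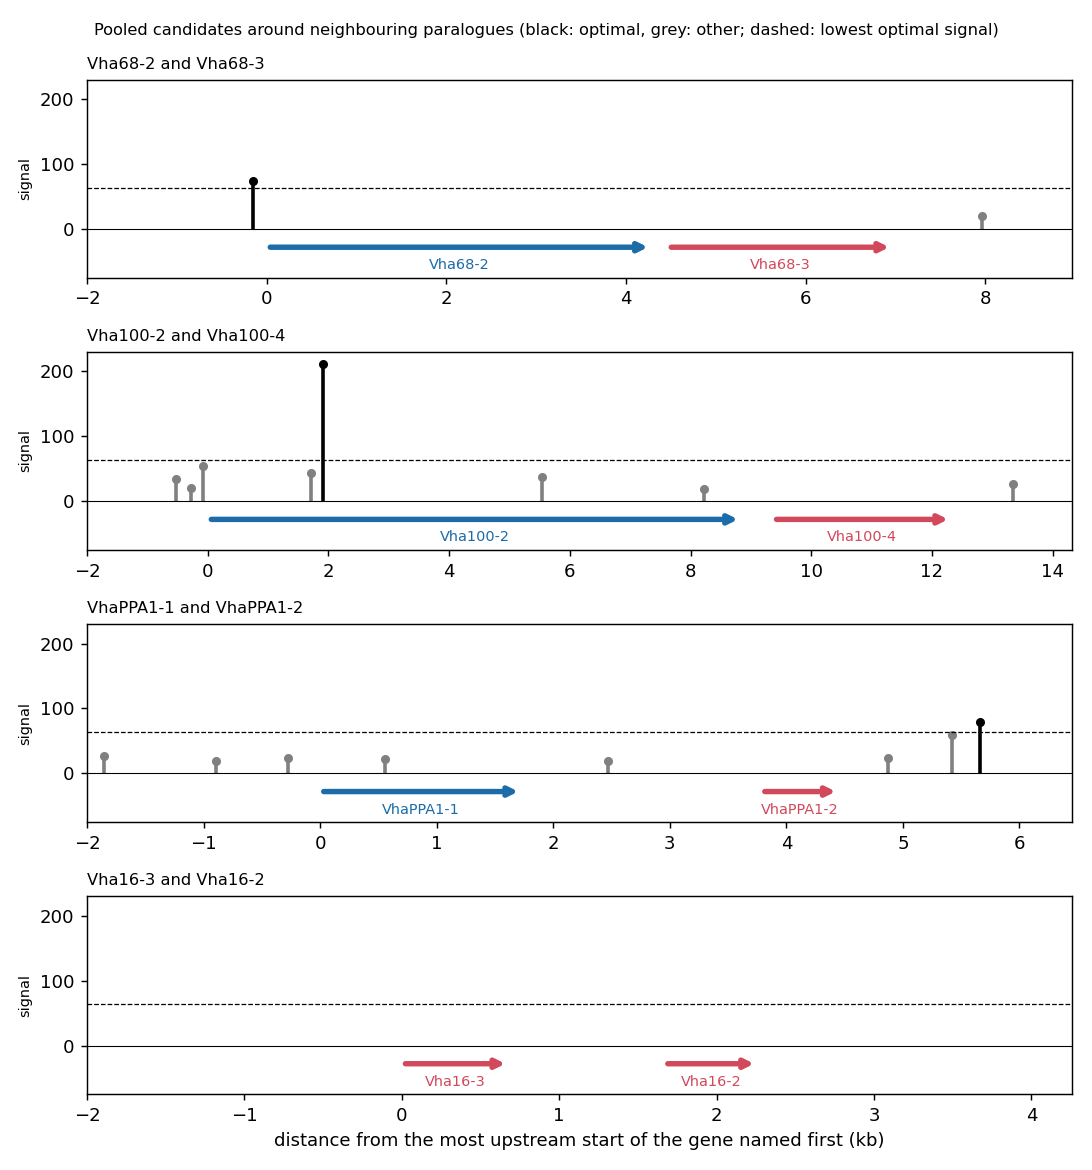
Pooled candidates, as vertical lines at their summits with the signal as height, around 4 pairs of neighbouring Vha paralogues, against the distance in kb from the most upstream start of the gene named first; arrows are the genes, blue for broad and red for restricted. Black lines are optimal peaks, grey ones other candidates, and the start of the restricted gene has no line within 500 bp in any panel.

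Neighbouring paralogues allowed the same contrast within one stretch of chromosome. Vha68-2 and Vha68-3 lie head to tail, with 178 bp between them and 4464 bp from start to start. The optimal peak of 74.3 stood before Vha68-2, while the nearest pooled candidate to the Vha68-3 start was 3496 bp away and had 19.9, at the low end of the list. Vha68-1, on the opposite strand and 29785 bp from Vha68-2 by their starts, had its own optimal peak of 98.5. Vha100-2 and Vha100-4 lie head to tail with 517 bp between them, and the locus map shows 7 candidates in or just before Vha100-2 and none within 1 kb of the Vha100-4 start. VhaPPA1-1 and VhaPPA1-2, with 2052 bp between them, had a weak candidate of 23.9 at the VhaPPA1-1 start and none at that of VhaPPA1-2; an optimal peak of 79.7 at rank 1676, 1876 bp downstream of the VhaPPA1-2 start, lay 29 bp from a start of Nup93-2, a nuclear pore gene. Around the restricted pair Vha16-3 and Vha16-2 the pooled list was empty over the whole region drawn.

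Many of these peaks were shared with a neighbour. Of the 17 strongest candidates, 10 lay within 500 bp of a start of another protein-coding gene, as did those of 44.2% of all genes with a candidate. Among the bound genes it was 4 of 6, against 56.4%: Vha68-1 with mTor, Vha55 with Snx3, Vha36-1 with CG8187 and Vha100-2 with Vti1b. Vha16-1 and Vha68-2 had theirs alone. The summit was nearer to the Vha start for Vha68-1 (87 and 286 bp) and Vha55 (74 and 128 bp), and nearer to the other gene for Vha36-1 (72 and 0 bp) and Vha100-2 (329 and 262 bp). When each peak counts for the gene with the nearest start alone, 4 Vha genes stay bound and Vha36-1 and Vha100-2 do not. A divergent gene within 1 kb was annotated for 14 of the 33 Vha genes (42.4%, against 36.2% of all genes). By state it was 4 of 6 bound genes, 8 of 11 with a candidate that was not optimal and 2 of 16 with none, against 63.8%, 48.0% and 23.0% over all genes in the same states.

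Sequence motifs were counted within 100 bp of the 17 summits, on both strands, and set beside the 2420 optimal summits and the 6786 pooled candidates near a start. The CARE was at 0 of the 17, and at 1.32% of the optimal summits and 1.25% of the promoter candidates. The composite TGATGCAAT, a stricter form of it, was at 0 of the 17, against 0.331% and 0.177%. DRE was at 0 of 17, against 3.55% and 5.22%, the copy printed above for Vha55 being 112 bp from the summit. Motif 1 was at 1, the Vha68-2 copy printed above, centred 13 bp from the summit, against 1.45% and 2.89%. GAGAG was at 5 of 17, against 22.6% and 23.2%, and the initiator-like TCAGTT at 3 of 17, against 13.3% and 13.6%. The GC content within 100 bp had a median of 40.3% for the Vha summits, 35.8% for optimal summits and 39.8% for promoter candidates, so in base composition the Vha summits were like other promoter candidates.

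The E-box CACGTG and its extension TCACGTGA are the sites of Mitf, the fly member of the TFEB family, a known activator of V-ATPase and lysosome genes. Both were found within 100 bp of 1 Vha summit, that of Vha44, centred 62 bp from it, and TCACGTGA contains the E-box, so this is 1 site. The E-box was at 2.40% of optimal summits and the longer form at 0.124%. Within 250 bp of the summit, TCACGTGA was also present at Vha16-1, 241 bp away, which made 2 of 17, against 0.413% of the optimal summits. The E-box was then at 3 of 17, with Vha55 added, 132 bp from its summit. The shares were 6.86% of the optimal summits and 6.84% of the promoter candidates. In the promoters, taken from 250 bases before to 50 after the start, the E-box was in 3 of 33 (Vha44, VhaM9.7-d and VhaAC45RP), against 4.23% of 13945 promoters, and TCACGTGA in 1, against 0.172%. DRE was in 2 Vha promoters (Vha55 and VhaSFD; 9.37% of all) and Motif 1 in 3 (Vha68-2, Vha26 and Vha100-1; 6.05% of all). The one CARE of these promoters, at −156 in Vha100-4, was at a gene without any candidate. Of all promoters, 1.81% held one. Within 250 bp of the summit, a CARE was present at 1 of 17, that of Vha44. The shares were 3.22% of the optimal summits and 3.32% of the promoter candidates. A match is a string of letters and no measured site.

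Genes that work with the pump were scored by the same rule. None of 7 V-ATPase partners was bound, against 11.5% of all genes, and 5 had a pooled candidate (71.4%, against 45.5% of all genes). The strongest of these was that of ClC-a, a chloride channel gene, with 50.6 at rank 3558, and Mitf itself had 36.6 at rank 6203 with a match in replicate 2 alone. Of 20 lysosome genes, 14 had a candidate (70%) and 2 were bound (10%, near the 11.5% of all genes). Ppt1, a gene for a lysosomal thioesterase, had 105.9 at rank 1038, 32 bp upstream and shared with Ogg1, at rank 1173 in replicate 1 and 1079 in replicate 2. The other was car, a gene for a subunit of the tethering complex that fuses vesicles with lysosomes, with 91.9 at rank 1332, shared with Grip84, and with a match in replicate 1 at rank 2035 and none in replicate 2. The strongest unbound lysosome gene was Rab7, a GTPase of late endosomes, with 60.8 at rank 2628. Of 15 genes for the mitochondrial ATP synthase, the related rotary enzyme that runs the other way and makes ATP, 10 had a candidate (66.7%) and 1 was bound (6.67%): ATPsynE, with 66.3 at rank 2276, shared with Afti and matched in replicate 2 alone. ATPsynF, with 48.9 at rank 3800, was the strongest unbound one. Among genes with a candidate the median signal was 48.9 for the Vha genes, 28.4 for the partners, 40.6 for the lysosome genes and 35.1 for the ATP synthase genes, against 37.8 over all 6352 genes.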

How the data were processed

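The data were peak lists of Crc-eGFP ChIP-seq from 2 biological replicates, numbered as in the labels. The authors deposited 4 lists on dm6: candidates of each replicate, candidates of the pooled replicates and the optimal peaks. The lists on dm3 were not used here. Per the deposited listings, candidates were called with a control, which was not analysed here. The aligner and the peak caller, with their versions, were not given in the sources used here. The signal is a score per peak from the authors' caller, of unstated normalization. The −log10 q value in the deposited files was 3.50 for 5 of the 6 bound Vha peaks and 3.10 for Vha68-2, and was not used to rank. The p-value column is not filled. The replicate lists hold 30000 regions each, so their weak ends may be truncated.

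Genes and starts came from the Ensembl annotation BDGP6.54, release 115, and sequences from the RefSeq copy of Release 6, which is dm6. Coordinates are 1-based. A summit was assigned to every gene with a start within 500 bp, and matched to a replicate summit within 100 bp. The members, classes and gene lists were chosen with earlier results of these data known. No test was made. Named were every Vha gene, genes with a start within 500 bp of a bound Vha summit, and in each pathway list the bound genes and the strongest unbound one; other genes (noi, Hmgs, CG12299, COX8, Gmppa, AANATL7, Nup93-2, Ogg1, Grip84, Afti and Mitf) were chosen after their values were seen. The assignment and motif search were tested on simulated data. Alternatives covered the distance, the overlap rule, the starts, the peak list, each replicate left out, the classes and the motif window. Software was Python 3.11.15, numpy 2.4.6, pandas 2.3.3 and matplotlib 3.10.9.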

Additional observations from a re-analysis of the deposited data

How the results depend on the processing

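The count of bound Vha genes, 6 as reported, ran from 4 to 7 over the alternatives, and in each the share of Vha genes bound was above that of all genes. It was 5 with a limit of 200 bp (15.2%, against 7.88% of all genes) and 7 with 1000 bp (21.2%, against 13.5%), which adds Vha14-1. Leaving out a replicate gave 5 without replicate 1, which loses Vha68-2, and 6 without replicate 2. Bound broad paralogues, 4 as reported, were 3 to 4 with a replicate left out. They fell to 2 when a peak counted for the nearest gene alone (without Vha100-2 and Vha36-1), where 8.28% of all genes were bound. They were also 2 with the stronger 1210 optimal peaks (without Vha16-1 and Vha68-2), where 6.35% of all genes were bound. Bound restricted paralogues were 0 under every alternative run, 0 to 0 with a replicate left out. Over these settings 6.35% to 13.5% of all genes were bound, so few of so small a class would be bound at the background share. The settings score overlapping peaks and the classes were chosen with earlier results known, so the repeated 0 is a description only. Genes with a candidate, 17 as reported, were 13 to 20 over the alternatives. Without replicate 1 there were 15 (45.5%, against 51.5% of all genes), and without replicate 2 there were 20 (60.6%, against 44.5%). The Vha share was thus below that of all genes in the first case and above it in the second. For the other settings the share of all genes with a candidate was not counted. Subunits whose broad gene exceeded its restricted paralogues, 5 as reported with unclear genes left out, were 4 to 6, and 5 to 6 with a replicate left out. Vha summits with any of the motifs searched were 6 within 100 bp, 5 within 50 bp and 9 within 250 bp. No such count was made for all summits. GAGAG alone was at 5 of 17 within 100 bp, against 22.6% of optimal summits, and at 6 of 17 within 250 bp, against 53.8%.

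The signal of Vha100-2 was 54.6 in place of 210.7 with a limit of 200 bp, with the outermost start alone or where the region had to overlap a start. With the 200 bp limit and with the overlap rule, Vha26 had 33.9 in place of 56.2 and VhaM9.7-b had 26.3 in place of 47.5, so Vha26 was then no longer the strongest unbound gene. Each of these alternatives scores another candidate or fewer peaks by construction. No paired analysis was possible because there is 1 group. The signal depends on a read depth that is not given, and with 2 replicates and no untagged library a peak that tagging or open chromatin alone would give cannot be told apart from Crc binding.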
